A study of Homo sapiens with 3 samples.

Results

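The nuclear-encoded subunits of the mitochondrial respiratory chain were followed through drug-free oral squamous cell carcinoma cells and their drug-resistant derivatives. Members were taken by gene symbol alone: NDUFA, NDUFB, NDUFC, NDUFS or NDUFV followed by a digit (complex I), SDHA to SDHD (complex II), symbols beginning UQCR (complex III), and symbols beginning COX4I, COX5, COX6, COX7 or COX8 (complex IV). This gave 69 of the 19220 genes in the count table, of which 39 were assigned to complex I, 4 to complex II, 9 to complex III and 17 to complex IV. The rule did not use any measured value.

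CAL27 is a human oral squamous cell carcinoma line. It was kept without drug, CAL27/5FU cells were kept in 10 µM 5-fluorouracil (5FU), and CAL27/OXA cells were kept in 10 µM oxaliplatin (OXA). All 3 carry the genotype label WT and were grown in high-glucose DMEM with fetal bovine serum, the resistant lines having been raised from CAL27 by stepwise increases of drug. Each line gave 1 RNA-seq library here, so that a line may stand for 1 selected population, drug and selection cannot be told apart, and no difference has a replicate check. Total RNA was prepared into libraries with a kit that does not mark strand. The library of CAL27 totalled 41786182 counts, that of CAL27/5FU 37297713 and that of CAL27/OXA 43455488. The 7 squamous markers (KRT5, KRT14, KRT17, KRT6A, TP63, CDH1 and EPCAM) were above the floor of 3 counts in every library, and their summed level was 13425 CPM (counts scaled to library size) for the drug-free line against 2902 under 5FU and 3671 under OXA. The sum was carried by the keratins: CDH1 had 380, 344 and 339 CPM, EPCAM 242, 318 and 247, and TP63 607, 249 and 664. The 11 markers of fibroblasts, blood cells and endothelium summed to 125, 103 and 169 CPM. Most of this came from CD68 (80.7, 46.7 and 114 CPM) and COL1A1 (35.6, 27.3 and 23.6 CPM). LUM had 3.08, 10.6 and 19.7 CPM, CDH5 1.10, 8.64 and 3.67, and COL1A2 2.31, 7.66 and 4.77. VWF had 1.13, 0.485 and 0.653 CPM, and PTPRC, the common leukocyte marker, had 2, 0 and 0 counts. Their part in the results was not tested.

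The respiratory chain sits in the inner mitochondrial membrane. Complex I takes electrons from NADH and complex II takes them from succinate, both hand them to ubiquinone, complex III passes them on to cytochrome c, and complex IV reduces oxygen. Complexes I, III and IV pump protons, which drive ATP synthesis by complex V. Most subunits are encoded in the nucleus and a few, including the catalytic core of complex IV, in mitochondrial DNA. Genes of mitochondrial DNA were not analysed here.

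Promoters of subunit genes are known for sites of nuclear respiratory factor 1 (NRF1), of the GABPA factor (nuclear respiratory factor 2) and of YY1, and the letters of such sites were looked for in RefSeq promoters of GRCh38.p14 on both strands, from 250 bases before to 50 after the gene start. A promoter was matched for 56 members, 52 of them with enough counts to be compared below. The NRF1 letters, GCGCA and GCGC with any 1 base (N) between them, were found in 12 of the 52 (23.1%), against 10.9% of 10648 compared genes of any kind and 6.28% of 27305 promoters in the table. They were present in 6 of 31 complex I genes, 2 of 3 complex II genes, 4 of 7 complex III genes and 0 of 11 complex IV genes. The GABPA letters CCGGAAG were found in 15 of 52 (28.8%, against 18.1% and 10.7%), including 5 of the 11 complex IV genes. The YY1 letters AAGATGGC were in 8 of 52 (15.4%, against 5.05% and 3.03%), and the hypoxia-response letters ACGTG in 13 of 52 (25.0%, against 26.2% and 21.6%). None of these words contains another. A match describes the letters and shows no binding.

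The 4 promoters that show these contrasts best are printed here up to the base before the gene begins in GENCODE, with matches to NRF1 or GABPA letters in capitals. NDUFB4 and SDHA hold NRF1 letters, COX5B holds GABPA letters, and NDUFV2, whose ratio in CAL27/5FU was the highest of the members with 100 or more counts on average, holds neither.
NDUFB4, chr3:120596086-120596308, plus strand: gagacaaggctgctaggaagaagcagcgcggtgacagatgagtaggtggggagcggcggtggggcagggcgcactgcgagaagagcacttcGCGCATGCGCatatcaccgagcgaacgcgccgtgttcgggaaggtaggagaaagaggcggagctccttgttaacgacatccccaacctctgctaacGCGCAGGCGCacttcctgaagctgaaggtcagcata
SDHA, chr5:218070-218240, plus strand: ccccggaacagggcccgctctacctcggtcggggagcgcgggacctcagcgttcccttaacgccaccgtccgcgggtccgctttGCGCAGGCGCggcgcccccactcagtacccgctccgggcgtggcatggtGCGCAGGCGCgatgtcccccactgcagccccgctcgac
COX5B, chr2:97645812-97646039, plus strand: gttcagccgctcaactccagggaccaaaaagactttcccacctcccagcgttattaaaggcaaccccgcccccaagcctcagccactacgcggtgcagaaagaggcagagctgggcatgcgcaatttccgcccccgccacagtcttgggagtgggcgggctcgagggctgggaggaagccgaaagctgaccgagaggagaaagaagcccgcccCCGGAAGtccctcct
NDUFV2, chr18:9102449-9102629, plus strand: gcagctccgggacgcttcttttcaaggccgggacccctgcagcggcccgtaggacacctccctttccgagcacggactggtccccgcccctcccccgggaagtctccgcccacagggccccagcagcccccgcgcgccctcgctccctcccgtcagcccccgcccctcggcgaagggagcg
The whole SDHA window held 4 NRF1 matches at an even step of 49 bases, of which the 2 farthest from the start are shown. In NDUFB4 the 2 matches shown lie 96 bases apart. The median log2 ratio of CAL27/5FU over CAL27 was -0.29 in the 12 members with the NRF1 letters and -0.29 in the 40 without, and that of CAL27/OXA was 0.02 and -0.04. For the GABPA letters the medians were -0.31 with (15 members) and -0.24 without (37 members) in CAL27/5FU, and -0.12 and -0.00 in CAL27/OXA. None of these differences was tested.

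The members were highly expressed as a class. Per length, the median level of the 64 members compared was 64.7 FPKM (fragments per kilobase of gene, scaled to the library total) in CAL27, with 56.0 for CAL27/5FU and 69.1 for CAL27/OXA, whereas all 13676 compared genes had medians of 8.54, 9.48 and 9.18 FPKM. Complex IV had the highest median of the complexes, with 155, 127 and 144 FPKM. COX8A, the small core-bound subunit of complex IV present in most tissues, led in every library with 565, 512 and 609 FPKM, followed by COX6A1 with 400, 368 and 421 FPKM. The leading complex II gene was SDHB, the iron-sulfur subunit, with 124, 123 and 121 FPKM, and the leading complex III gene was UQCRH, the hinge protein, with 173, 158 and 192 FPKM. In complex I the leading gene was not the same in the 3 libraries: NDUFB9 in CAL27 (160 FPKM), NDUFV2 in CAL27/5FU (301 FPKM) and NDUFS5 in CAL27/OXA (177 FPKM). SDHB kept nearly level values per length, whereas NDUFV2 and NDUFB9 changed places.

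Another 5 members had 0 counts in all 3 libraries and were not compared: COX4I2, COX6A2, COX7B2, COX8C and the read-through gene NDUFC2-KCTD14. With 0 of 37297713 to 43455488 counts, counting alone allows up to 0.0770 CPM (CAL27), 0.0766 CPM (CAL27/5FU) or 0.0675 CPM (CAL27/OXA). NDUFC2-KCTD14 shares 92.6% of its 50-base stretches with other genes, so that its 0 counts do not bound its level. COX6A2 shares 32.5%, so that its 0 counts bound its level less tightly. COX4I2, COX6A2, COX7B2 and COX8C are complex IV isoforms known from lung, muscle or testis, and their widespread partners were abundant. A further 2 restricted isoforms were near the floor. COX7A1, the heart and muscle form, had 8, 21 and 23 counts, whereas its partner COX7A2 had 3159, 2599 and 3831. COX6B2, the testis form, had 2, 7 and 25 counts against 3811, 2577 and 3965 for COX6B1. COX6B2 passed the filter of a mean of 10 counts mainly through CAL27/OXA.

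**Figure D1:**
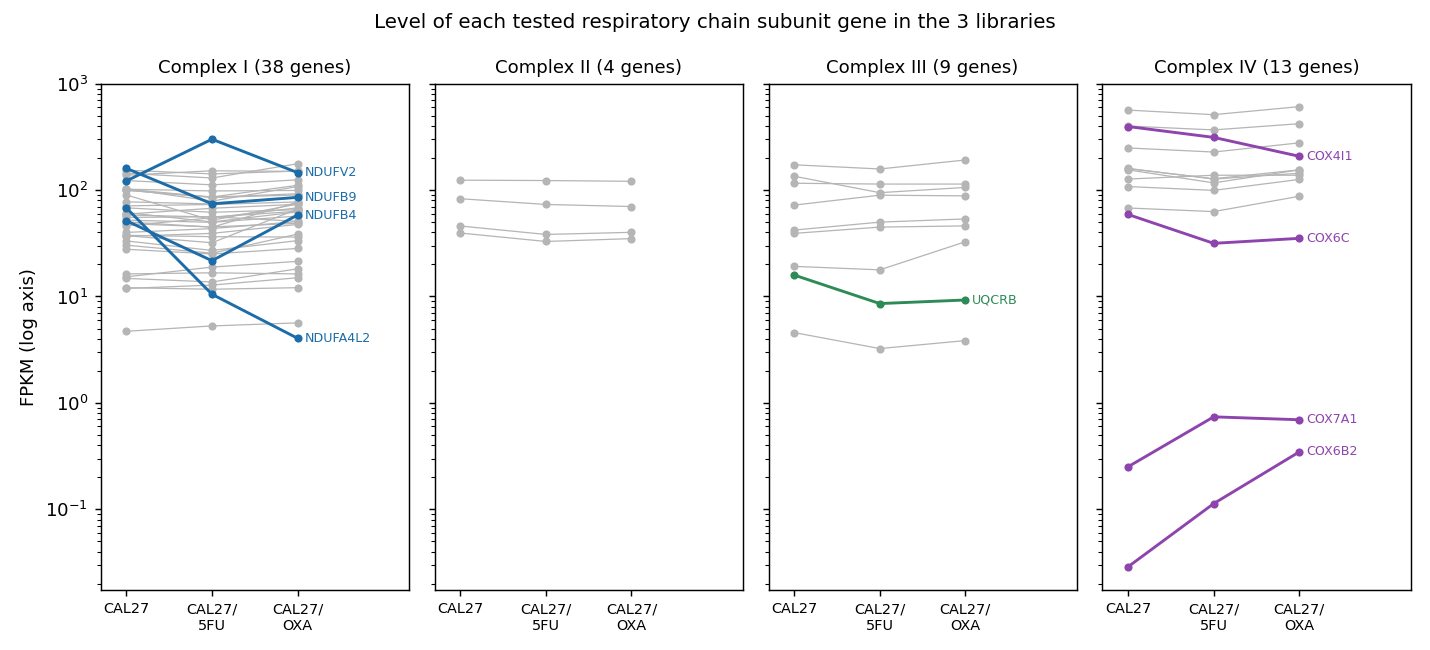
FPKM (log axis) of the 64 compared subunit genes in the 3 libraries, 1 panel per complex, each line joining the values of 1 gene (1 library per line, no error bars). Most grey lines run nearly level, but not those of NDUFA7 (37.3, 32.0 and 66.3 FPKM) and NDUFB5 (90.0, 52.1 and 73.9 FPKM), among others. NDUFA4L2 drops from 67.9 to 10.5 and 4.05 FPKM, NDUFB4 dips in CAL27/5FU, and NDUFV2 peaks there at 301 FPKM.

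Levels were next compared between the lines as log2 ratios of CPM scaled with TMM factors (trimmed mean of M values). A gene was called past 2-fold at a log2 ratio beyond 1, and each ratio was given an exact 95% Clopper-Pearson interval, which covers counting error only and is printed in brackets. In bulk RNA, fewer cells expressing a gene and less RNA per cell cannot be told apart.

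In CAL27/5FU the subunits lay lower as a class by a small amount. The median log2 ratio of the 64 members was -0.29 (0.818-fold), against -0.00 for all compared genes, and 55 of 64 members (85.9%) were below 0, against 50.3% of all genes. The whole counting interval was below 0 for 48 members (75.0%, against 38.0% of all genes) and above 0 for 3 (4.69%, against 36.6%). The members had a higher median count than all genes (2866 against 1216), which narrows their intervals. Few ratios were large: 5 members were past 2-fold lower, where 6.72% of all compared genes were, and 3 were past 2-fold higher, where 8.46% were. Those 8 of 64 members (12.5%) stand against 15.2% of all genes in both directions together. NDUFA4L2, NDUFB4, NDUFB9, UQCRB and COX6C were the lower ones, and NDUFV2, COX7A1 and COX6B2 the higher ones. The counting interval of COX6B2 included 0. With scaling to total counts UQCRB (-0.89) and COX6C (-0.90) were not past 2-fold. The shift was thus made of many small ratios. The share past 2-fold was near that of all genes, the scarce COX7A1 and COX6B2 are among the 8, and the difference was not tested. Together the members took 0.5466% of all counts in CAL27 (95% interval 0.5444 to 0.5489) and 0.4999% in CAL27/5FU (0.4977 to 0.5022), and their summed scaled CPM was 5863.8 and 4763.8.

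In CAL27/OXA the class lay closer to all genes. The median log2 ratio was -0.04 against 0.01 for all genes, and 39 of 64 members (60.9%, against 49.5%) were below 0. With scaling to total counts the median of the members was 0.09 and that of all genes 0.14. There 23 members (35.9%, against 38.5% of all genes) were below 0. Past 2-fold, 3 members were lower (9.28% of all genes were) and 2 were higher (6.54% of all genes were). The 2 higher were the scarce COX6B2 and COX7A1, and COX6B2 passed the count filter mainly through CAL27/OXA itself. The 3 lower were NDUFA4L2, NDUFB9 and COX4I1. The whole counting interval was above 0 for 20 members (31.2%, against 38.0% of all genes) and below 0 for 28 (43.8%, against 37.5%). The members took 0.5360% of counts (0.5339 to 0.5382). Their summed scaled CPM was 5243.9, a change of -10.6% from CAL27, against -18.8% in CAL27/5FU.

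Set directly against each other, the resistant lines differed in the same sense. CAL27/OXA over CAL27/5FU had a median log2 ratio of 0.21 against 0.01 for all genes, and 58 of 64 members were positive. The remaining 6 (9.38%) were below 0, against 49.1% of all genes. For 45 members the whole interval was above 0 (70.3%, against 36.4%) and for 4 below 0 (6.25%, against 35.5%). Past 2-fold, 3 members were higher in CAL27/OXA (4.18% of all genes were), namely COX6B2, NDUFA7 and NDUFB4. COX6B2 passed the count filter mainly through CAL27/OXA, so its place among the higher members follows in part from the filter. Another 2 were lower (8.38% of all genes were), namely NDUFA4L2 and NDUFV2. These 3 comparisons share libraries and are not independent of each other.

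**Figure D2:**
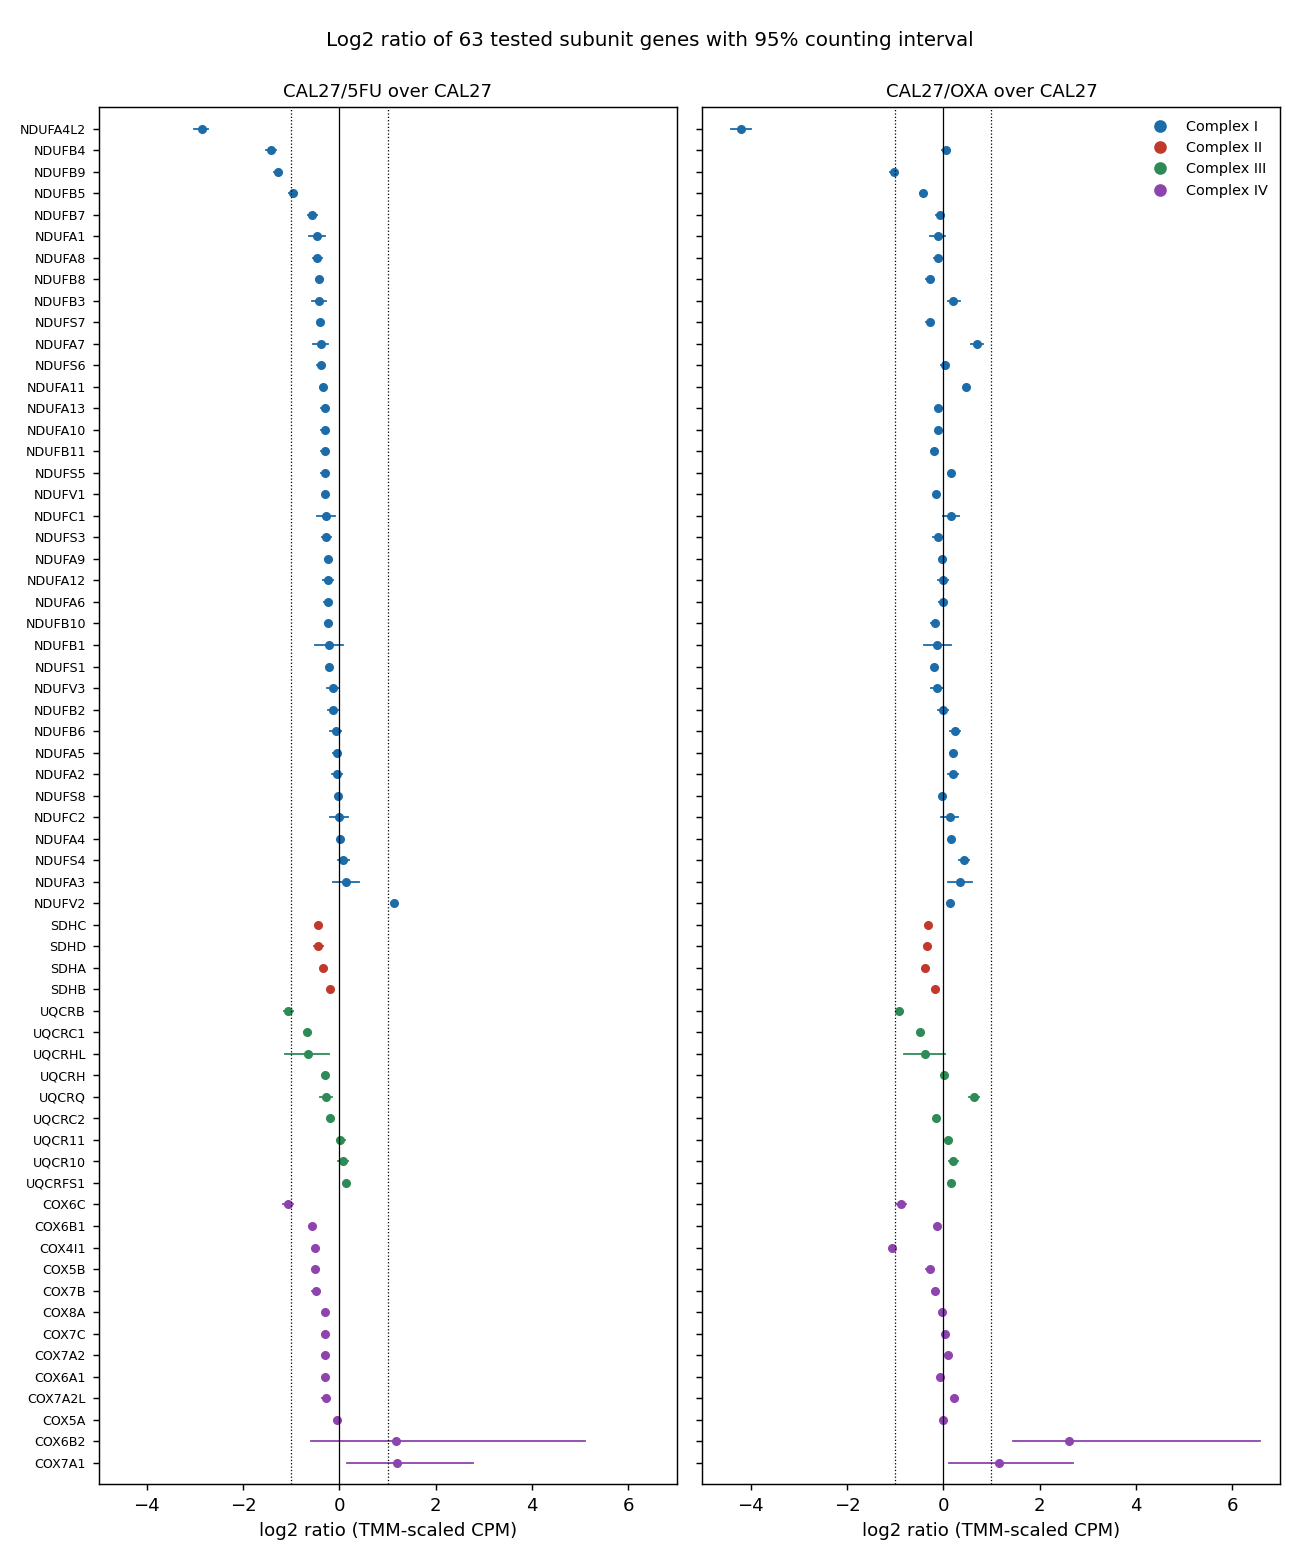
Log2 ratios of 63 of the 64 compared members, ordered within each complex by the ratio in CAL27/5FU, with bars for the 95% counting interval and dotted lines at 2-fold. On the left 54 points lie below 0, on the right 38, and NDUFA4L2 is the farthest to the left in both panels.

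By complex, the medians in CAL27/5FU lay close together: -0.28 for complex I (38 genes), -0.39 for complex II (4 genes), -0.28 for complex III (9 genes) and -0.29 for complex IV (13 genes). In CAL27/OXA they were -0.02, -0.32, 0.01 and -0.03, so that complex II stood lowest. The median of complex I minus that of complex IV was 0.02 in CAL27/5FU and 0.01 in CAL27/OXA. In proportion, the summed CPM of complex IV changed most in CAL27/5FU (1609.9 to 1235.7, a change of -23.2%) and that of complex I least (2736.7 to 2310.2, -15.6%).

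Complex I carries the NADH-oxidising flavin and iron-sulfur subunits (NDUFV and NDUFS) in its matrix arm and many accessory subunits (NDUFA, NDUFB and NDUFC) around the core. In CAL27/5FU 34 of 38 genes were below 0 (89.5%, against 50.3% of all genes). The core subunits moved little. NDUFV1, which binds NADH and flavin, had 10424, 8582 and 10619 counts in the order CAL27, CAL27/5FU and CAL27/OXA, which is kept below, with log2 ratios over CAL27 of -0.29 [-0.33, -0.25] and -0.16 [-0.20, -0.12]. NDUFS1, the largest iron-sulfur subunit, had log2 ratios of -0.22 and -0.19. NDUFA1, a small membrane-arm subunit, had 676, 492 and 707 counts and log2 ratios of -0.46 [-0.64, -0.30] and -0.12 [-0.28, 0.03].

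NDUFV2 was the exception among the core genes. This iron-sulfur partner of NDUFV1 had 4747, 10432 and 5910 counts, so that CAL27/5FU stood alone with a high value. It rose 2.19-fold in CAL27/5FU, a log2 ratio of 1.13 [1.08, 1.18], and its ratio in CAL27/OXA was 0.13 [0.07, 0.18]. The gene lies at chr18:9102630-9134345 (GRCh38, plus strand), overlapped by NDUFV2-AS1 on the opposite strand, whose reads cannot be told apart from it with a kit that does not mark strand. It also shares 74.0% of its 50-base stretches with other annotated genes.

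The 3 genes NDUFB4, NDUFB9 and NDUFB5 had the lowest ratios of the accessory subunits in CAL27/5FU after NDUFA4L2. NDUFB4 (chr3:120596309-120602500, plus strand), a membrane-arm subunit, had 2335, 877 and 2749 counts, low in CAL27/5FU alone. Its log2 ratio was -1.42 [-1.53, -1.31] in CAL27/5FU, 2.67-fold lower, and 0.05 [-0.03, 0.13] in CAL27/OXA. NDUFB9, another membrane-arm subunit, had 4681, 1945 and 2609 counts and was low in both resistant lines, with log2 ratios of -1.27 [-1.35, -1.20] and -1.03 [-1.10, -0.96]. NDUFB5 had 3653, 1886 and 3119 counts, with log2 ratios of -0.96 and -0.42, neither past 2-fold. NDUFA7 and NDUFA11, on chromosome 19, had higher counts with oxaliplatin. NDUFA7 had 861, 660 and 1590 counts, with log2 ratios of -0.39 and 0.69, and CAL27/OXA exceeded CAL27/5FU by 1.08 [0.95, 1.22]. NDUFA11 had 3615, 2873 and 5749 counts, with log2 ratios of -0.34 and 0.48. NDUFA7 shares its exons with a read-through gene and lies opposite RPS28, so that its counts are less certain.

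NDUFA4L2 had the lowest ratio of any member in both lines. It is the NDUFA4-like gene known as a target of the hypoxia-inducible factor HIF-1, and its relative NDUFA4 is now placed in complex IV despite its name. NDUFA4L2 (chr12:57234903-57240715, minus strand) had 3371, 464 and 209 counts, with CAL27 high and both resistant lines low. Its log2 ratio was -2.86 [-3.01, -2.73] in CAL27/5FU (7.27-fold lower) and -4.19 [-4.41, -4.00] in CAL27/OXA (18.2-fold lower), placing it 145 and 71 from the bottom of 13676 genes. NDUFA4 had 5119, 5183 and 6584 counts, with log2 ratios of 0.01 [-0.04, 0.07] and 0.17 [0.12, 0.23]. Per length, NDUFA4L2 stood at 1.14 times NDUFA4 in CAL27, 0.155 times in CAL27/5FU and 0.0550 times in CAL27/OXA. In CAL27 the pair was about level, and in both resistant lines NDUFA4 predominated.

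Complex II, succinate dehydrogenase, is the only complex of the chain made wholly from nuclear genes and also serves the TCA cycle. With TMM scaling all 4 genes had ratios below 0 in both resistant lines, none past 1.5-fold, with the whole counting interval below 0 each time. SDHA, the flavoprotein that oxidises succinate, had 9231, 7281 and 8108 counts, with log2 ratios of -0.35 [-0.39, -0.30] and -0.38 [-0.42, -0.33]. SDHB had 5986, 5283 and 6045 counts, with log2 ratios of -0.19 and -0.18, which were -0.02 and -0.04 with scaling to total counts. SDHC and SDHD, the membrane anchors, had log2 ratios of -0.44 and -0.44 in CAL27/5FU and of -0.31 and -0.33 in CAL27/OXA. The subunits thus lay within a narrow band in each line, below the median of all genes. SDHA shares 22.3% of its 50-base stretches with other genes of the annotation, so part of its reads could have been assigned elsewhere.

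Complex III genes diverged more. UQCRB, which binds near the ubiquinone site, had 3255, 1569 and 1976 counts, with log2 ratios of -1.06 [-1.15, -0.97] and -0.91 [-0.99, -0.83]. UQCRC1, a core protein, had 9114, 5707 and 7468 counts, with log2 ratios of -0.68 and -0.48, whereas its partner UQCRC2 had -0.19 and -0.15. UQCRFS1, the Rieske iron-sulfur protein that carries electrons within the complex, was the highest of the complex in CAL27/5FU, with 3700, 4092 and 4698 counts and log2 ratios of 0.14 [0.07, 0.20] and 0.15 [0.09, 0.22]. UQCRQ, a small subunit, had 1269, 1050 and 2251 counts, low in CAL27/5FU and high in CAL27/OXA, with log2 ratios of -0.28 and 0.64. UQCRHL, a near copy of UQCRH, had 103, 65 and 90 counts. UQCRH shares 29.4% of its 50-base stretches with other genes, and the split of reads between the pair is uncertain.

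In complex IV, 11 of 13 genes were below 0 in CAL27/5FU (84.6%, against 50.3% of all genes), the exceptions being COX6B2 and COX7A1. COX4I1, the main regulatory subunit, which takes up the site where COX4I2 can replace it, had 13973, 9857 and 7631 counts and was lowest in CAL27/OXA. Its log2 ratio was -0.51 [-0.55, -0.47] in CAL27/5FU and -1.06 [-1.10, -1.02] in CAL27/OXA, 2.09-fold lower. COX4I1 (chr16:85798633-85807044, plus strand) overlaps 976 bases of EMC8 on the opposite strand. COX6C, a small transmembrane subunit, had 2271, 1085 and 1409 counts, with log2 ratios of -1.07 [-1.18, -0.97] and -0.88 [-0.98, -0.78]. COX6B1, which links the complex IV monomers into a dimer, had log2 ratios of -0.57 and -0.13. COX5A and COX5B, which bind the core from the matrix side, did not move alike: COX5A had log2 ratios of -0.05 and -0.01 and COX5B of -0.50 and -0.28. COX7A2L, which takes part in assembling supercomplexes, had log2 ratios of -0.28 and 0.23. Of the scarce isoforms, COX7A1 had log2 ratios of 1.20 [0.15, 2.77] and 1.16 [0.12, 2.70], and COX6B2 of 1.18 [-0.59, 5.10] and 2.61 [1.45, 6.58]. With 2 counts of COX6B2 in CAL27, its ratios are poorly fixed.

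The members with large ratios were then set beside their neighbours on the chromosome, the 5 nearest compared genes on each side that are no members, placed with GENCODE 29. In CAL27/5FU NDUFV2 had a log2 ratio of 1.13 and its neighbours a median of 1.09, with 8 of 10 past 1.5-fold higher. The starts of NDUFV2 and TYMS, the gene of the 5FU target thymidylate synthase, lie 8.45 Mb apart on chromosome 18. NDUFB4 had -1.42 and its neighbours -0.77, with 6 of 10 past 1.5-fold lower, and in CAL27/OXA both were above 0 (0.05 and 0.33). NDUFB4 and its neighbours thus moved down in the same line.

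The 3 members on chromosome 8 were low in both resistant lines, as were their neighbours. NDUFB9 overlaps MTSS1 and TATDN1 on the opposite strand and COX6C overlaps VPS13B. UQCRB had log2 ratios of -1.06 and -0.91, and its neighbours had medians of -1.18 and -0.99. NDUFB9 had -1.27 and -1.03, against -1.01 and -0.94 for its neighbours. COX6C had -1.07 and -0.88, against -0.56 and -0.68. The 455 other compared genes of chromosome 8 had medians of -0.26 in CAL27/5FU and -0.53 in CAL27/OXA. UQCRB and COX6C start 3.65 Mb apart, and NDUFB9 starts 24.67 Mb from COX6C.

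COX4I1 showed the same in CAL27/OXA alone. Its log2 ratio of -1.06 stood beside a neighbour median of -0.81, with 8 of 10 neighbours past 1.5-fold lower, whereas in CAL27/5FU it had -0.51 beside 0.08. NDUFA7 (0.69) and UQCRQ (0.64) had neighbour medians of 0.61 and 0.48 in CAL27/OXA. Other members did not follow their surroundings. NDUFA4L2 had neighbour medians of -0.26 and -0.16 beside its own -2.86 and -4.19. In CAL27/5FU NDUFB5 had -0.96 where its neighbours had -0.16, and UQCRHL had -0.66 where they had 0.06. In CAL27/OXA SDHB had -0.18 where its neighbours had -0.97, NDUFV1 had -0.16 where they had -0.66, and NDUFS8 had -0.02 where they had -0.73.

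Counted over all members in CAL27/5FU, the neighbour median was past 1.5-fold lower for 3 of the 8 members past 1.5-fold lower and for 0 of the other 56. In CAL27/OXA it was so for 4 of 5 such members and for 3 of the other 59. In the other direction, the neighbour median was past 1.5-fold higher for 1 of 3 members past 1.5-fold higher in CAL27/5FU and for 0 of the other 61. In CAL27/OXA this held for 1 of 4 such members and for 0 of the other 60. Of all compared genes taken singly, 14.0% and 17.0% were past 1.5-fold lower in the 2 comparisons, which is no base rate for a median of 10 neighbours. Across the 64 members, Pearson's r between a member and its neighbour median was 0.48 in CAL27/5FU and 0.38 in CAL27/OXA, and Spearman's rho was 0.34 and 0.61. These are descriptions, since the points share libraries and scaling and nearby members share neighbours. DNA copy number was not analysed here, and its part in these ratios was not tested. Without the 7 members on chromosomes 3, 8 and 18, a choice made after their values were seen, the median in CAL27/5FU was -0.28 and 3 members were past 2-fold. Of the members left out, NDUFB5 and UQCRC1 on chromosome 3 had neighbour medians of -0.16 and -0.34 in CAL27/5FU, neither past 1.5-fold lower. NDUFB5 starts 59.01 Mb from NDUFB4.

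**Figure D3:**
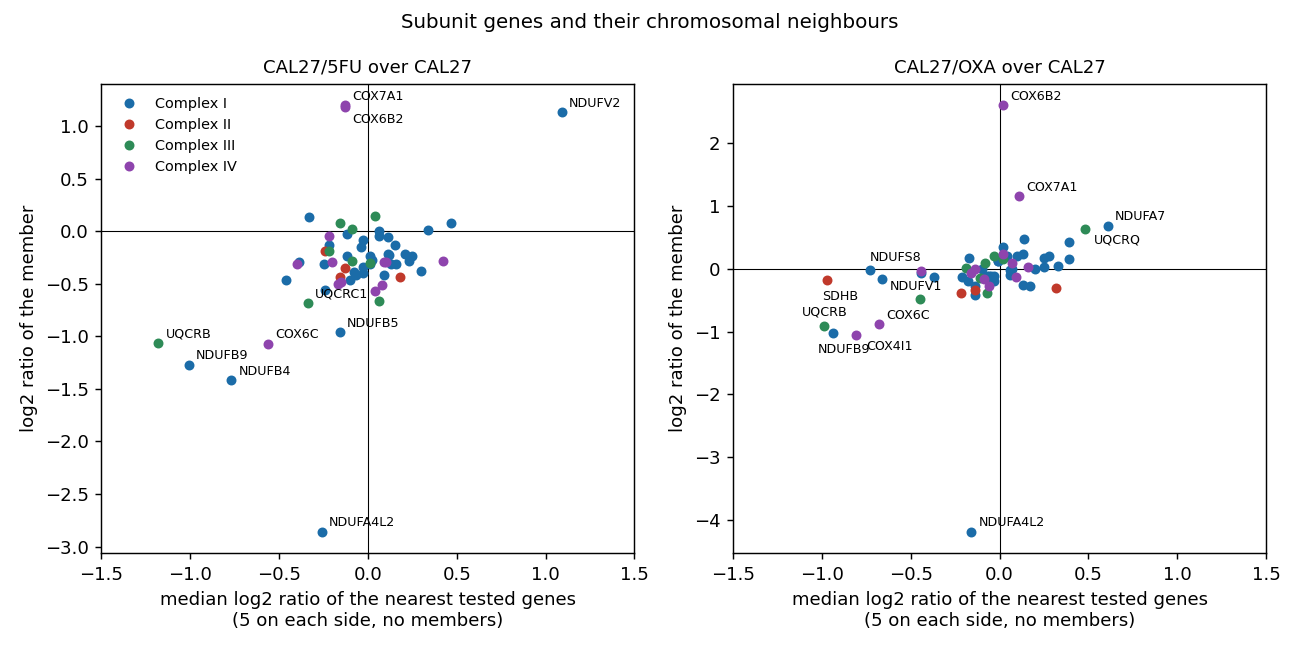
Log2 ratio of each member (vertical) against the median log2 ratio of its 10 nearest compared non-member genes (horizontal) in the 2 comparisons with CAL27. UQCRB, NDUFB9 and NDUFV2 lie near the diagonal on the left, COX6C and NDUFB4 lie below it with neighbours at -0.56 and -0.77, COX4I1 joins the lower group on the right, and NDUFA4L2 lies far below with neighbours near 0.

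Other genes of the pathway were described by lists fixed by name. Complex V, the ATP synthase, lay close to the chain: its 17 compared genes had medians of -0.30 in CAL27/5FU and -0.05 in CAL27/OXA. In CAL27/5FU 16 were below 0 (94.1%, against 50.3% of all genes) and none past 2-fold. The 45 assembly factors, which build the complexes but are not part of them, had medians of 0.05 and 0.23. Of these, COA7 rose past 2-fold and ACAD9, SURF1 and TIMMDC1 fell past 2-fold in CAL27/5FU. SCO2, a copper chaperone of complex IV, fell past 2-fold in CAL27/OXA. These were 8.89% and 2.22% of the list, below the 15.2% and 15.8% of all genes. Subunits and assembly factors thus had medians on opposite sides of 0 in CAL27/5FU, and with scaling to total counts the subunit median was still below 0.

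Of the electron carriers between complexes III and IV, cytochrome c itself (CYCS) had log2 ratios of -0.00 and 0.14. CYC1, the cytochrome c1 of complex III, whose symbol the rule does not take, had 8099, 4409 and 4227 counts and log2 ratios of -0.88 and -1.13, past 2-fold lower in CAL27/OXA. The 12 regulators of mitochondrial biogenesis had medians of 0.10 and 0.06 with none past 2-fold, against 15.2% and 15.8% of all genes. PPARGC1A, the coactivator PGC-1 alpha, was scarce with 44, 69 and 32 counts.

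The 14 TCA cycle genes had medians of -0.04 and -0.17 and the 78 mitochondrial ribosome genes of -0.03 and 0.09, none of either list past 2-fold. The 78 compared cytosolic ribosome genes had -0.40 in CAL27/5FU (74 below 0, 94.9% against 50.3% of all genes) and -0.01 in CAL27/OXA, the same order as the subunits. The 18 glycolysis genes had -0.66 and -0.63, with 17 and 16 below 0 (94.4% and 88.9%, against 50.3% and 49.5% of all genes). In both lines SLC2A1 (the glucose transporter GLUT1), GPI, ALDOC and ENO2 fell past 2-fold. They make up 22.2% of the list, against 15.2% and 15.8% of all genes past 2-fold in either direction. SLC2A1 had 52701, 17856 and 12523 counts and log2 ratios of -1.57 and -2.26.

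**Figure D4:**
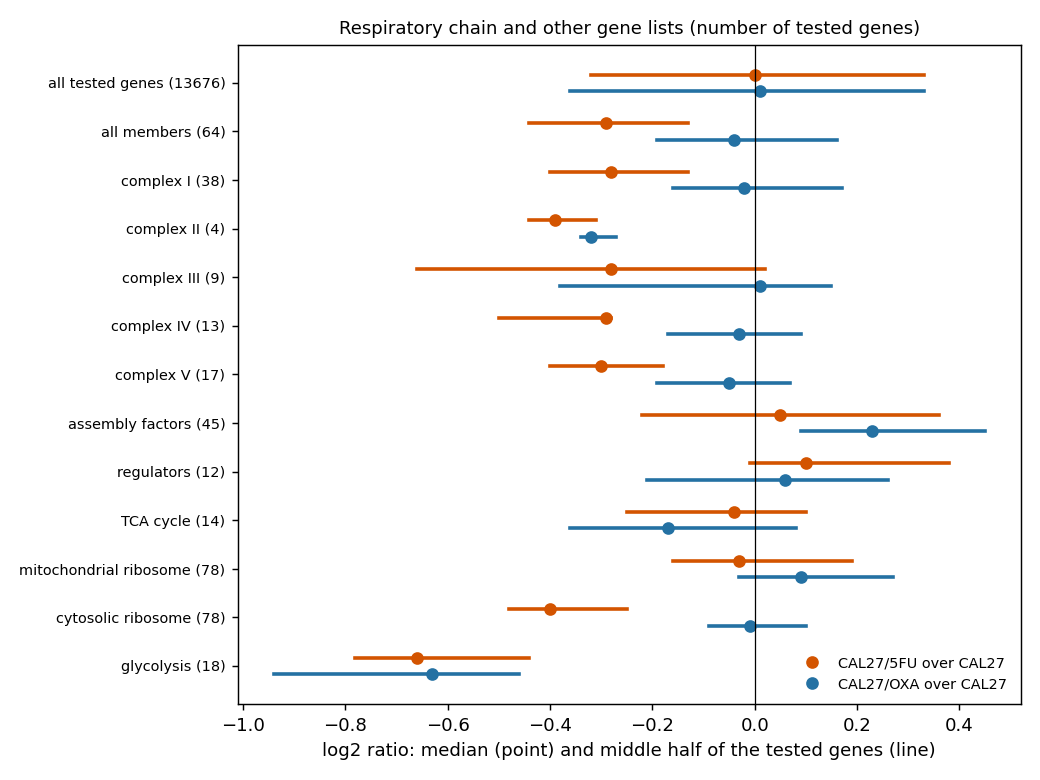
Median (point) and middle 50% of genes (line) of the log2 ratios for the subunits by complex, other lists and all compared genes, in CAL27/5FU and CAL27/OXA over CAL27. In CAL27/5FU the complexes lie between -0.39 and -0.28 beside complex V at -0.30, assembly factors lie at 0.05, and in CAL27/OXA only complex II and glycolysis have the whole line below -0.25.

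Subunit transcripts are short, with a median length of 911.2 bases against 3008 for all compared genes, and short genes lay slightly lower in CAL27/5FU. The 714 compared non-member genes under 1000 bases had a median log2 ratio of -0.12 (61.3% below 0), and genes of 2000 bases or more had 0.02. With a smooth trend on length removed, the median of the members was -0.19 in CAL27/5FU, and it was -0.05 in CAL27/OXA. RNA quality was not analysed here.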

How the data were processed

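Of 3 cell lines, 1 library each was analysed. The authors deposited read counts per gene symbol without normalization and, in a second table, FPKM values. The submitters' processing notes name CASAVA 1.8, HISAT2 2.0.5 and GRCh38 (hg38), and the counting tool and annotation are not given in the sources used here. Count, FPKM and total gave 1 gene length within 0.1% for 14367 of 14367 genes with counts in all libraries, so FPKM is scaled by total counts. A further 3 columns of per-sample values in both tables match no labelled sample and stayed out of every step.

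Counts were scaled with TMM factors of 0.932 (CAL27), 1.05 (CAL27/5FU) and 1.02 (CAL27/OXA) computed by edgeR 4.0.16 (R 4.3.3), and log2 CPM was taken at a prior count of 2. Comparison was limited to the 13676 genes averaging 10 counts or more. With 1 library per line there was no replicate test and no p-value. Exact 95% Clopper-Pearson intervals (scipy 1.17.1) and the floor of 3 counts cover counting error only. The steps were tested on simulated data. Members and lists were chosen with earlier results of these data known. Genes named are the markers NDUFA1 and COX4I1, members past 2-fold in any comparison, the highest and lowest of each complex averaging 100 counts or more, catalytic subunits, isoforms, members with shifted neighbours and the highest by FPKM. NDUFB5, NDUFS8 and genes named from other lists were chosen after their values were seen. The values of 1 member are not reported here, though counts and medians include it. Gene positions came from GENCODE 29 (GRCh38), which placed all 69 members.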

Additional observations from a re-analysis of the deposited data

How the results depend on the processing

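The direction of the median in CAL27/5FU held under every alternative run, and the size depended on the scaling. Against -0.29, the median of the members was -0.12 with total counts and with FPKM at a pseudocount of 1 or 0.1, -0.12 with FPKM restricted to a mean of at least 1, and -0.19 with the length trend removed. Total counts moved the median of all genes to 0.17 in CAL27/5FU and 0.14 in CAL27/OXA. Scaling shifts members and all genes nearly alike, so the differences between their medians, -0.29 and -0.05, were bound to stay. In CAL27/OXA the median of the members was -0.04 and turned to 0.09 with total counts and with FPKM at either pseudocount, and to 0.07 with FPKM restricted to a mean of at least 1. The count past 2-fold in CAL27/5FU, 8, became 6 with total counts, where UQCRB had -0.89 and COX6C -0.90. It became 4 with FPKM at a pseudocount of 1, with or without the restriction, and 5 at 0.1. It was 4 where the whole interval had to be past 2-fold and 3 without members on chromosomes 3, 8 and 18. At 1.5-fold it was 11 (17.2%, against 29.3% of all genes). In CAL27/OXA the count of 5 became 3 with total counts, with a mean of at least 50 counts, with FPKM at a pseudocount of 0.1 and with the whole interval. It became 1 with FPKM at a pseudocount of 1, with or without the restriction, and 9 at 1.5-fold (14.1%, against 31.1% of all genes). The shares of all genes past 2-fold under the other settings are not given here. Complex I minus complex IV was 0.02 in CAL27/5FU and 0.01 in CAL27/OXA with DESeq2 size factors and with total counts. Both settings shift all ratios of a comparison nearly alike, so they could not move this difference. The alternative with NDUFA4 and NDUFA4L2 counted with complex IV was added after seeing the data, and its medians for complexes I and IV are not given here. DESeq2 size factors gave medians of -0.28 in CAL27/5FU and -0.04 in CAL27/OXA, with 8 and 5 members past 2-fold. Prior counts of 0.5 and 5 gave medians of -0.29 and -0.04. Upper-quartile scaling gave medians of -0.25 and -0.02. With it, 33 members (51.6%, against 47.4% of all genes) were below 0 in CAL27/OXA, where 39 were with TMM. Apart from what the settings do by construction, the cause was not tested. No paired analysis was possible because each line has 1 library, all numbered 1. Leaving out a library was not run, since a line would have none. Depth limits the 5 members at 0 counts and the scarce COX6B2 and COX7A1. In CAL27/5FU the interval included 0 for 13 of 64 members, COX6B2 among them. Some of these were well counted with ratios near 0, such as NDUFA4 with 5119 counts in CAL27 and 0.01 [-0.04, 0.07]. Biological spread is unknown.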
